A study of Mus musculus with 10 samples.

Results

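The replication-dependent histone genes are the gene family that supplies new histones for chromatin made during DNA replication. In this count table they were taken by symbol as the genes named H1f1 to H1f6, H2ac, H2bc, H3c or H4c with a number, or Hist1 to Hist4 in the older naming. The rule found 65 of the 25239 genes in the table. They comprised 18 H2A, 17 H2B, 12 H3, 12 H4 and 6 H1 genes, of which 55 lay on chromosome 13 and 10 on chromosome 3 (GRCm38). No measured value entered the rule, but the family was chosen with earlier results of these data known.

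These genes work differently from other protein-coding genes. Their transcription peaks in S phase, driven by the coactivator Npat, and most of their mRNAs have no introns and end in a conserved stem-loop in place of a poly(A) tail. The stem-loop binding protein Slbp and the U7 particle, which holds Lsm10 and Lsm11, guide the cut that forms this end, and the mRNA is degraded when replication stops, with the LSm ring of Lsm1 to Lsm7 among the factors. Some histone genes also make polyadenylated mRNA, and the male germ line has its own members, among them H1f6 (H1t), H2ac1 (TH2A) and H2bc1 (TH2B).

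RNA-seq was made from the testis of C57BL/6 mice on day 4 (P4) and day 7 (P7) after birth. Libraries came from wild-type mice (WT) and from mice labelled as an Lsm7 conditional knockout (cKO, genotype label Lsm7-flfl-stra8), and each stage has 2 WT and 3 cKO libraries. The labels give the cell type as germ cell, but describe extraction from testis with no sort, and markers of Sertoli cells, the supporting somatic cells, summed to 2133 to 3976 reads per M reads (RPM) in every library against 174 to 1795 for germ cell markers. The labels do not say whether RNA was selected for poly(A) tails, whether libraries came from separate animals, or what limits the cells that lose Lsm7, so p-values measure the spread between these libraries, which may be technical. In whole testis, fewer cells of a type and less RNA per cell cannot be told apart.

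Libraries held 28.8 to 41.8 M reads. The counts of the P7 WT libraries agreed nearly within sampling noise (1.98 in chi-square per degree of freedom, against 23.5 to 122.9 for the other same-group library pairs) and were summed and counted as 1 sample, so n is 2 and 3 at P4 and 1 and 3 at P7. Lsm7 did not fall in the libraries labelled cKO by the test used here. It was read at 36.2 and 25.7 counts per M reads (CPM) in P4 WT against 44.9, 50.5 and 43.6 in P4 cKO (log2 fold change 0.58, adjusted p = 0.215). At P7 the values were 33.3 CPM in WT against 45.2, 26 and 20.3 in cKO (-0.13, adjusted p = 0.835). A count over the whole gene does not show which part of it is read, and below cKO means labelled so.

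P7 cKO library 1 stood apart for histone genes, and results that rest on it are given with and without it. It held the highest level of the 9 samples for 47 of the 58 members with reads. Among the 25 members with a mean of 10 reads or more per library it was highest for 20, against 15.7% of the 16723 genes of the table that met the same minimum. Of these 25, 22 were over 2-fold higher in it than in the mean of the P7 cKO libraries 2 and 3, and 3 were lower. The minimum counts reads of library 1 too, so some of the 25 met it through that library. H2bc14, for example, had 70 of its 110 reads there.

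The stem-loops are shown because they are the feature that defines the family and because their place in the annotation differed between the most-read members. GENCODE transcripts (GRCm38) of 43 members held a match to the histone stem-loop consensus, as did 111 of all 141767 transcripts (0.0783%). Capitals mark the 16-base stem and loop, and each run is 26 bases, 5′ to 3′.
H1f2: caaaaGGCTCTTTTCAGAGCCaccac
H2bc11: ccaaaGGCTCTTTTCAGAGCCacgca
H2ac11: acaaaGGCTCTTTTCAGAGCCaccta
H3c3: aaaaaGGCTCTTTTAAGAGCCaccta
H4c4: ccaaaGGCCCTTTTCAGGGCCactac
H4c9: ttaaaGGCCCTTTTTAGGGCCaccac
H4c2: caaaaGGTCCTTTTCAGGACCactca

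The core of H1f2, H2bc11 and H2ac11 was the commonest of 8 and was found in 24 members, drawn from H1, H2A, H2B and H3. The core shown for H4c4 was found in 6 members, all of them H4 genes. In 23 members the stem-loop lay within 100 bases of the annotated transcript end. H2bc11 and H2ac11 are among these, with 23 bases after it. In the other 20 the annotated transcript ran on further, by 840 bases in H1f2, 330 in H4c9 and 770 in H4c4. The remaining 22 members had no match, of which 11 had annotated transcripts that stopped at the stop codon and could hold none. The 11 with longer transcripts included H2bc4 (1156 bases) and H2bc21 (2620 bases).

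H2bc4 and H2bc21, which encode H2B, and H1f2, which encodes the linker histone H1.2, took most of the histone reads. H2bc4 had 5284 reads over the 10 libraries (28.8% of all member reads), H2bc21 4443 (24.2%) and H1f2 2077 (11.3%), and the next member, H1f1, had 598 (3.26%). Those 3 genes made up 76.3% to 89.2% of member reads in the P4 and P7 WT libraries, 78.3% to 79.3% in P4 cKO, and 29.0%, 54.1% and 57.7% in P7 cKO. Per length the order was H2bc4 with a mean of 21.2 RPKM over the samples, H1f2 with 8.77 and H2bc21 with 4.87. H4c9 (3.49 RPKM), H2bc11 (3.13) and H1f1 (2.50) followed, then H4c4 and H3c3 (both 1.85), and the spread over P7 cKO libraries of each gene from H4c9 on exceeded the gaps between them.

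Of the 65 members, 7 had no read in any library (Hist1h2ap, Hist1h2ao, Hist1h2br, Hist1h2bq, H2ac18, H3c14 and H3c15). All 7 overlap another member in the table's annotation, as does H2ac19, and the sources used here do not say how multi-mapped reads were handled, so their counts are uncertain. The filter on low counts passed 52 members, some through the group where they were high, and left out 6 with reads. The testis histones were near the limit of detection: H1f6 lay between 0 and 0.365 CPM, H2bc1 between 0 and 0.425 and H2ac1 between 0 and 0.668.

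At P4, H1f2 was higher in the cKO libraries, and most other histone genes lay higher there at low levels without passing the test. H1f2 was read at 1.42 and 3.6 CPM in WT, against 7.03, 12.6 and 11.2 CPM in cKO. The groups did not overlap, and the lowest cKO library lay above the highest WT library. The fold change was 2.03 (log2, SE 0.42, edgeR quasi-likelihood test with Benjamini-Hochberg adjustment, adjusted p = 0.0216). H1f2 lies at chr13:23738807-23739531 on the plus strand, and the table counts reads over 725 bases there, which stop short of the longer annotated transcript.

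H1f2 was the 1 member called of 52 tested, where 8.96% of the 18419 genes tested were called, 4.84% as higher. None was lower, against 4.13% of all genes. The call of H1f2 held in 18 of 21 alternatives. It was lost when library 2 or 3 of P4 cKO was left out. In those fits 13 and 11 genes of the whole table were called, against 1651 with all libraries. It was also lost without P4 WT library 1, which leaves 1 WT sample at P4. Without P7 cKO library 1, H4c2 (2.56, adjusted p = 0.0446) and the pseudogene Hist1h2al (-5.86, adjusted p = 0.0063) were called as well. Calls over the whole table then rose to 4157 genes.

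The H2B genes that lead the family behaved otherwise. H2bc4 was read at 20.9 and 23.9 CPM in P4 WT, against 20.5, 20.8 and 14.4 in P4 cKO, all 3 below both WT libraries. The fold change was -0.27 (SE 0.45, adjusted p = 0.718). H2bc21 was read at 11.1 and 12.6 CPM in WT, against 15.1, 14.3 and 15.0 in cKO. Here the cKO libraries lay above WT by less than the test resolves (0.32, SE 0.19, adjusted p = 0.29).

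The remaining 62 members were summed to show low genes together. Their summed level was 6.22 and 4.86 CPM in P4 WT and 11.8, 12.9 and 10.6 CPM in P4 cKO, a ratio of the means of 2.12. Each of the 5 histone classes gave sums that did not overlap. For H4 the sums were 1.62 and 1.24 CPM in WT and 3.79, 3.87 and 3.64 CPM in cKO (ratio 2.63), and for H2A 1.19 and 1.39 against 2.98, 3.01 and 2.40 (2.17). The ratio was 3.05 for H1 without H1f2, 1.98 for H3 and 1.49 for H2B without H2bc4 and H2bc21. No test is given for these sums.

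By gene, 16 of 52 members were higher in P4 cKO with no overlap, against 24.1% of all genes tested, and 2 (H2bc4 and Hist1h2al) were lower, against 25.6%. Among the 25 members with a mean of 10 reads or more, chosen without regard to group, the median log2 fold change was 1.21, against 0.03 for all 16723 such genes. Of these 25, 21 had positive values and 4 negative. With no overlap, 11 of the 25 were higher, against 26% of such genes, and 2 were lower, against 25.1%. Some of the 52 had passed the filter through the group where they were high.

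Other RNAs moved with genotype at P4, and their part in these values was not tested. The ribosomal RNA precursor Rn45s, which has no poly(A) tail, was read at 0.098% and 0.078% of all reads in WT, against 0.316%, 0.649% and 0.337% in cKO (2.46, SE 0.36, adjusted p = 0.0114). Germ cell markers summed to 279 and 357 RPM in WT and 174 to 180 in cKO, with 2 of 5 lower by the test. Sertoli cell markers summed to 2133 and 2793 against 3167 to 3976, with 3 of 5 higher. Of the 73 small nuclear, nucleolar and Cajal body RNA genes tested, none was called, where 8.96% of all genes were.

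**Figure D1:**
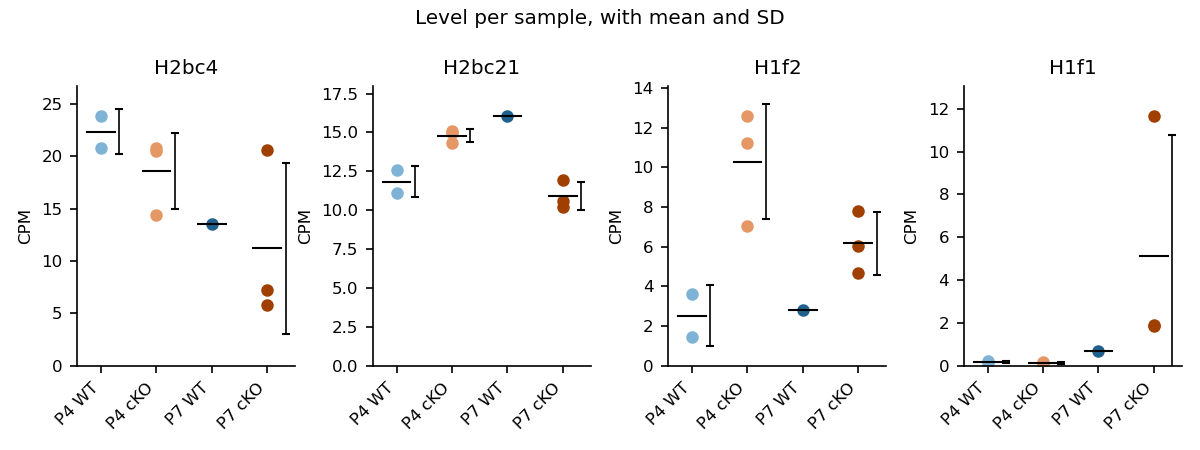
CPM per sample of the 3 most-read histone genes and of H1f1, with the group mean (line) and SD (bar beside the points, for groups with 2 or more samples; the P7 WT point is the sum of 2 libraries). H1f2 shows no overlap between WT and cKO at P4, H2bc21 is ordered oppositely at P4 and P7, and the highest H2bc4 and H1f1 points of P7 cKO are library 1.

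At P7, H2ac13, H2bc11 and Hist1h2an, genes for H2A, H2B and H2A, were higher in the cKO libraries, at low counts. H2ac13 (chr13:21716412-21716859) had no read in either P7 WT library and 104, 60 and 27 reads in the cKO libraries, or 3.16, 1.51 and 0.656 CPM. All cKO libraries lay above WT. With 3 counts taken as the upper limit of the WT group, summed over its libraries, the level was at least 32.2-fold higher in cKO, and at least 20.7-fold without library 1 (adjusted p = 0.00895 and 0.00249, edgeR). Such limits cover counting error only, and are weaker where each read pair was counted by both ends.

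Hist1h2an (chr13:21786774-21787248, H2ac22 in RefSeq) was also without a read in P7 WT and had 28, 18 and 10 reads in cKO. That is at least 9.45-fold higher at the same floor, or at least 6.65-fold without library 1 (adjusted p = 0.0248 and 0.0216). H2bc11 (chr13:22043198-22043658) was read at 0.087 CPM in WT, against 9.60, 1.26 and 0.778 CPM in cKO. Library 1 lay far above the others, and all 3 lay above WT. The log2 fold change was 5.42 (SE 1.67, adjusted p = 0.0492), and 3.50 without library 1 (adjusted p = 0.0187).

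The promoters of these 3 genes and of H1f2 are shown because these are the members called between genotypes. RefSeq windows (GRCm38.p6) run from 250 bases before to 50 after each start, 5′ to 3′ on the gene's strand. Capitals mark exact matches of TATAAA, taken here for the TATA box, and matches of the CCAAT box on either strand. The octamer motif ATTTGCAT was searched in the same way.
H2ac13, chr13:21716162-21716461, plus strand: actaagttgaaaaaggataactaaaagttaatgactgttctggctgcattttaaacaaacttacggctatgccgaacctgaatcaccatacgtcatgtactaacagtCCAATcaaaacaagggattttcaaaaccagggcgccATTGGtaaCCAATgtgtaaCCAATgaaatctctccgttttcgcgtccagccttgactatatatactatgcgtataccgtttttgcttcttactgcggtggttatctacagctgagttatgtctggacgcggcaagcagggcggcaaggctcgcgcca
Hist1h2an, chr13:21787199-21787498, minus strand: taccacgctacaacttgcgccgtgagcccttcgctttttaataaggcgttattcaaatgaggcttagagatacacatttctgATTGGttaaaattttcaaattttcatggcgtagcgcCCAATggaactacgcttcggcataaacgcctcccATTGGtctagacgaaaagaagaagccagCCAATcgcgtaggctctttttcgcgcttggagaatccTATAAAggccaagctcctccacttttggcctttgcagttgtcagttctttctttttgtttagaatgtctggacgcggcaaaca
H2bc11, chr13:22042948-22043247, plus strand: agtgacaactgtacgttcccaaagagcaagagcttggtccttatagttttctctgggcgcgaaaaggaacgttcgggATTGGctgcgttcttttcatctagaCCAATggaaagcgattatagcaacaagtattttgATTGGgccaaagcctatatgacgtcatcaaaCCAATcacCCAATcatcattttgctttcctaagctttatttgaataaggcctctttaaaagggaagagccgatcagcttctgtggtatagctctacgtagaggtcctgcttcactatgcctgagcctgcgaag
H1f2, chr13:23738557-23738856, plus strand: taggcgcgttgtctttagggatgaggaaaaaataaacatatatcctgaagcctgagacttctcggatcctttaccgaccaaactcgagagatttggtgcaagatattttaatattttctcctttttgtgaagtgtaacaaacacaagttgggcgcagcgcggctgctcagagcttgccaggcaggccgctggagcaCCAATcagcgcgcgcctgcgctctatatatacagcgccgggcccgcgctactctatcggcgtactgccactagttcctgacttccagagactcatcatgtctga

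CCAAT or its reverse occurred 4 times in the windows of H2ac13 and Hist1h2an, 5 times in that of H2bc11 and once in that of H1f2. The exact run TATAAA occurred in that of Hist1h2an alone among these 4, and variants of the TATA box were not searched. Over the 58 members with a window, 86.2% held CCAAT, against 41.1% of 27025 genes with windows of this length. CCAAT was in every H1, H2A, H2B and H3 window but in 3 of 11 H4 windows. TATAAA was in 58.6% of members against 15.7%, and ATTTGCAT in 22.4% against 1.97%, all in H2A (6 of 16) and H2B (7 of 15) genes. The motifs were searched on both strands, matches of different motifs were counted even where they share letters, and a match is a description of the sequence.

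H2bc11, H2ac13 and Hist1h2an each lie beside a gene read from the other strand. The starts of H2bc11 and H2ac11 are 248 bases apart, so that their windows overlap. H2ac11 was read at 0.347 CPM in P7 WT and at 2.37, 0.653 and 0.413 CPM in cKO, with the cKO libraries above WT (1.70, SE 0.96, adjusted p = 0.236). H2bc13 starts 228 bases from H2ac13 and was read at 0.069 CPM in P7 WT and at 0.790, 0.050 and 0.097 in cKO, where the groups overlapped. Hist1h2bp starts 239 bases from Hist1h2an and also overlapped, at 0.260 CPM in P7 WT and 0.516, 0.126 and 0.219 in cKO.

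The 3 genes were 3 of 52 members tested, where 17% of all genes tested were called at P7, and 7.26% as higher. None of the members was called lower, against 9.72% of all genes. H2ac13 was called in 19 of 21 alternatives, Hist1h2an in 16 of the 19 that tested it and H2bc11 in 8 of 21. The adjusted p of H2bc11 ran up to 0.281 over them, and it was not called when any 1 of the P4 or P7 WT libraries, the P4 cKO libraries or P7 cKO library 2 was left out. Hist1h2an had a mean under 10 reads per library, entered the test through the group where it was high and was not tested under a filter blind to groups. With the P7 samples fitted alone, none of the 3 was called, nor was any gene of the whole table. When offsets corrected for length and GC, none was called either, and 1 gene was called at P7 over the whole table, against 3129 without them. Without library 1, 6 members were called, and 4921 genes over the whole table. The 3 genes and Hist1h2al were higher, and H1f5 and H2bc4 were lower.

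H2bc4 was read at 13.5 CPM in P7 WT and at 20.6, 7.19 and 5.79 CPM in cKO. Libraries 2 and 3 lay below WT and library 1 above it. The fold change was -0.27 (SE 0.56, adjusted p = 0.766) over all libraries and -1.06 (adjusted p = 0.0116) without library 1. H1f5, a linker histone gene, showed the widest gap: 160 reads in library 1 against 2 and 0 in libraries 2 and 3, with 18 and 16 in P7 WT.

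H1f2 was read at 2.79 CPM in P7 WT and at 4.65, 7.81 and 6.05 CPM in cKO. All 3 cKO libraries lay above WT (1.14, SE 0.52, adjusted p = 0.148). H2bc21 was read at 16.1 CPM in WT, against 10.2, 12.0 and 10.6 CPM in cKO, all below it (-0.56, SE 0.24, adjusted p = 0.122). Its direction was thus opposite to that at P4. The test of that difference gave -0.88 (SE 0.31, adjusted p = 0.119).

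The 62 less-read members summed to 9.87 CPM in P7 WT and to 87.0, 22.9 and 16.4 CPM in cKO. All cKO libraries lay above WT, and library 1 was 4.43 times the mean of the other two. The ratio of cKO to WT means was 4.27, or 1.99 without library 1. Without it the ratio was 4.12 for H2A, 2.24 for H4, 1.48 for H2B, 1.40 for H3 and 1.11 for H1. The pseudogene Hist1h2al gave 3.02 of the mean H2A sum of 7.43 CPM in libraries 2 and 3. It had 2 and 4 reads in P7 WT, so the ratios of 4.12 and 1.99 rest partly on it. The median log2 fold change over the 25 members with a mean of 10 reads or more was 1.77, against 0.06 for all such genes, and 0.72 without library 1. By gene, 26 of 52 members were higher in cKO with no overlap, against 36.2% of all genes, and 2 (H2bc21 and H3c4) were lower, against 34.6%. Of the 25, 13 were higher with no overlap, against 36.7% of all such genes, and 2 were lower, against 36.2%. Some of the 52 and some of the 25 passed their filters through library 1, so these counts depend in part on it.

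Here too other RNAs moved with genotype, and their part in these values was not tested. Rn45s took 0.143% of reads in each P7 WT library and 0.400%, 0.600% and 0.347% in cKO (1.55, SE 0.46, adjusted p = 0.0413). Germ cell markers summed to 1795 and 1783 RPM in WT and to 1231, 950 and 987 in cKO, with 2 of 5 lower by the test, and Sertoli cell markers to 2673 and 2664 against 2770, 3203 and 3324, with 1 of 5 higher and 1 lower.

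**Figure D2:**
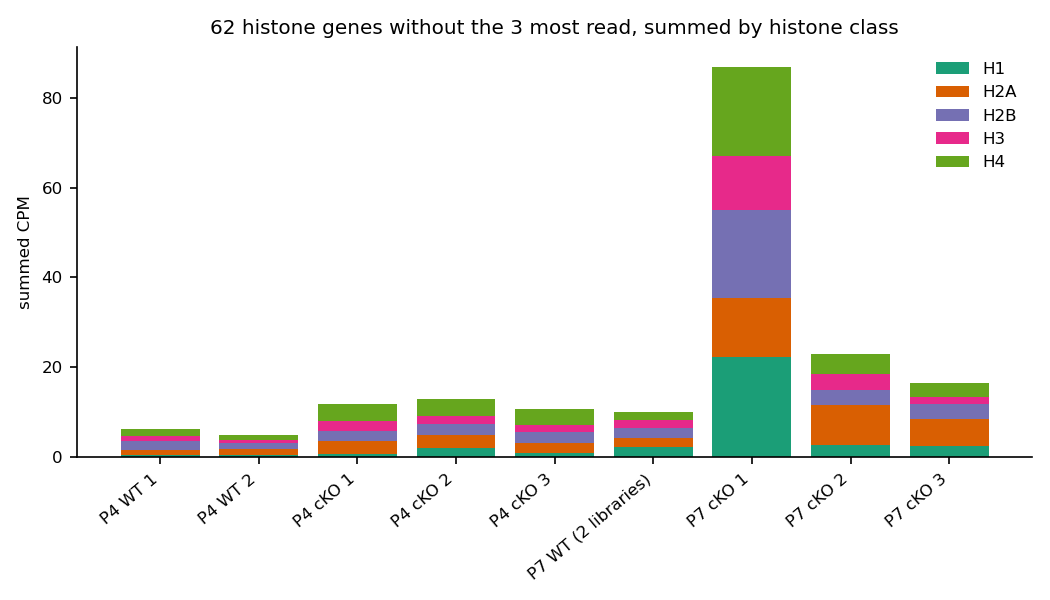
Summed CPM of the 62 histone genes other than H2bc4, H2bc21 and H1f2, 1 bar per sample, stacked by histone class. The sums are 4.86 to 6.22 in P4 WT, 10.6 to 12.9 in P4 cKO, 9.87 in P7 WT, and 87.0, 22.9 and 16.4 in P7 cKO.

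P7 cKO library 1 differed from the other P7 cKO libraries in more than histone genes. It held 43.7% of all reads of the 62 less-read members. H1f4 was 21.6-fold, H4c3 16-fold, H2bc14 10.1-fold and H1f1 6.21-fold above the mean of libraries 2 and 3. H2bc21 (0.91-fold) and H1f2 (0.67-fold) were lower in it, and Hist1h2al had no read in it against 140 and 104.

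Other gene groups in that library were examined after its histone levels were seen. The 7 immediate early genes looked at, which respond within minutes to stimuli, summed to 1663 RPM in it, against 288 and 296 in libraries 2 and 3, 427 and 433 in P7 WT and 182 to 297 at P4. Fos was read at 241 RPM against 3.75 and 4.58. The 8 genes taken as epididymal summed to 458 RPM in it, against 105 and 86.4, with 203 and 208 in P7 WT and 142 to 283 at P4. The defensin Defb19 alone gave 398 of the 458 RPM and was read at 75.6 to 272 RPM in every other library, so the sum mostly shows this 1 gene. All 8 were above libraries 2 and 3, and 5 of the 8 were below both P7 WT libraries. Spermatid markers summed to 24.9 RPM against 6.62 and 5.80, with 0.28 and 0.53 in P7 WT, where 4 of 6 were at 0. At P4 they summed to 11.8 and 8.47 RPM in WT and 3.61 to 6.46 in cKO, so the P7 WT libraries were the lowest. S phase genes summed to 2019 RPM in library 1, below the 3039 and 2814 of libraries 2 and 3 and near the 2090 and 2106 of P7 WT. The part of any of these in the histone values was not tested.

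**Figure D3:**
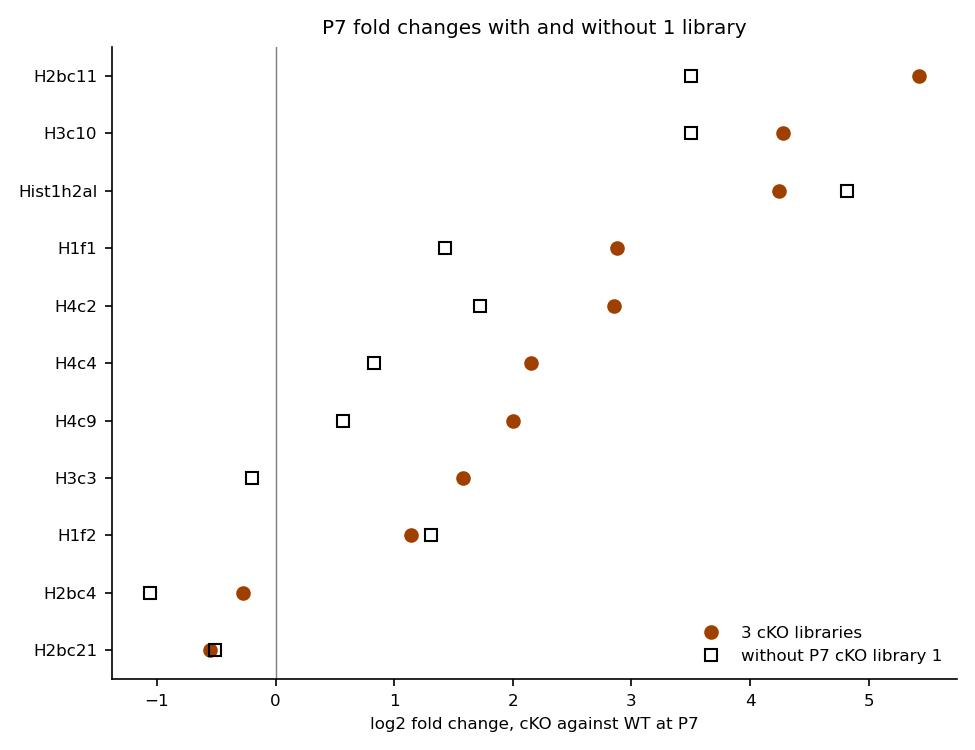
Log2 fold change of cKO against WT at P7 for histone genes described here that have WT reads and a mean of 10 reads or more per library, with all 3 cKO libraries (filled) and without library 1 (open). Most open points lie nearer 0, H2bc4 moves from -0.27 to -1.06, and Hist1h2al lies higher without it.

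From P4 to P7 no member passed the test in WT, whereas 10 did in cKO. These counts do not show that the change differed between genotypes. The sum of the 62 less-read members at P7 was 1.78 times that at P4 in WT. In cKO it was 3.58 times, or 1.67 times without P7 cKO library 1. Over the 25 members with a mean of 10 reads or more, the median log2 fold change was 0.63 in WT. In cKO it was 1.76, or 0.10 over those tested without that library. The comparisons between stages share no samples with each other but share them with those above. In WT, 21.8% of all genes tested were called (11.8% higher and 9.97% lower) and 0 of 52 members were (edgeR). At an unadjusted p under 0.05, 5 of 52 members passed, against 37.2% of all genes. DESeq2 and limma-voom also called none. Without P7 cKO library 1, which enters through the shared estimate of the spread, H1f5 and H1f1 were higher and H2ac13 lower at P7 in WT.

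In cKO the called members were H1f1, H2ac13, H2bc11, H3c10, H2bc14, H4c2, H4c11, Hist1h4n, H2ac1 and Hist1h2al. All 10, or 19.2% of the 52 tested, were higher at P7, against 14.5% of all genes called as higher and 29.2% called either way (14.7% lower). H1f1, a linker histone gene, was read at 0.058, 0.137 and 0.158 CPM in P4 cKO and at 11.7, 1.86 and 1.90 CPM in P7 cKO. The groups did not overlap. The log2 fold change was 5.40 (SE 0.86, adjusted p = 0.00126) and was 3.96 without library 1 (adjusted p = 7.89e-05). In WT the same gene was read at 0.199 and 0.118 CPM at P4 and 0.694 at P7 (2.12, SE 1.17, adjusted p = 0.21). The difference between genotypes in that change was 3.28 (SE 1.58, adjusted p = 0.222).

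H2ac13 was read at 0.289, 0.205 and 0.211 CPM in P4 cKO, below all 3 P7 libraries (2.89, SE 0.61, adjusted p = 0.00472). H2bc11 was read at 0.463, 0.274 and 0.158 CPM in P4 cKO, again below all 3 (3.68, SE 0.93, adjusted p = 0.0136). Without library 1 they gave 2.18 (adjusted p = 0.0134) and 1.76 (adjusted p = 0.039). These, H1f1 and Hist1h2al were the 4 of the 10 still called without that library, where H4c11, H2ac1 and H2bc14 did not pass the filter. H4c2, H3c10 and Hist1h4n were tested and not called (adjusted p = 0.324, 0.06 and 0.0548). H2bc4 (-1.52, adjusted p = 0.000145) and H4c9 (-1.43, adjusted p = 0.0443) were then called lower.

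Of the others, H3c10 (H3) and H2bc14 (H2B) gave 2.93 (adjusted p = 0.0223) and 3.75 (adjusted p = 0.0206). The H4 genes H4c2, H4c11 and Hist1h4n gave 1.97, 3.23 and 2.23 (adjusted p = 0.0478, 0.0473 and 0.0294). H4c11, Hist1h4n and H2ac1 had a mean under 10 reads per library and entered the test through the group where they were high. With a filter blind to groups they were not tested and the other 7 were called. Hist1h4n was the steadiest of these over libraries, at 0.668, 0.402 and 0.608 CPM in P7 cKO against 0.116, 0.068 and 0.158 in P4 cKO.

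H2ac1, the testis H2A gene, had no read in P4 cKO and 22, 6 and 8 reads in P7 cKO. That is at least 10.7-fold higher at the floor of 3 counts over the group, or at least 5.87-fold without library 1, where it did not pass the filter (adjusted p = 0.0166 with all libraries). Its neighbour H2bc1, the testis H2B gene, starts 280 bases away and gave 2.42 (SE 1.21, adjusted p = 0.158). H1f6, the testis H1 gene, gave 1.74 (SE 1.10, adjusted p = 0.258). Markers of germ cells summed to 174 to 180 RPM in P4 cKO and 950 to 1231 in P7 cKO, with 5 of 5 higher, and their part in these values was not tested.

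Hist1h2al, which RefSeq lists as the transcribed pseudogene H2af-ps2 (chr13:51200084-51203066), had a pattern of its own. It had no read in P4 cKO and 0, 140 and 104 reads in P7 cKO, with 6 and 6 in P4 WT and 2 and 4 in P7 WT. The P7 cKO level was at least 72.7-fold above P4 cKO at the same floor, although library 1 was itself at 0 (adjusted p = 0.0158). Of the 25 members with a mean of 10 reads or more it had the lowest ratio of library 1 to libraries 2 and 3.

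The change with genotype was not shown to differ between stages for any member. The interaction term called 0 of 52 members and 0% of all genes (edgeR). At an unadjusted p under 0.05, 6 of 52 members passed, against 25.1% of all genes. DESeq2 called H2bc11 and H2ac13, among 1665 genes of the whole table. The smallest adjusted p of a member was that of H2ac13 (0.0696).

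Npat, the coactivator of histone transcription, was lower in cKO at both stages. It was read at 114 and 114 CPM in P4 WT and at 73.7, 67.6 and 76.9 CPM in P4 cKO, with no overlap (-0.65, SE 0.16, adjusted p = 0.0365). At P7 the WT sample had 165 CPM and the cKO libraries 80.2, 62.5 and 80.3 CPM, again with no overlap (-1.15, SE 0.20, adjusted p = 0.00773). The 62 less-read histone genes summed higher in cKO at the same stages.

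With offsets for length and GC, Npat gave -0.36 at P4 and -0.16 at P7, and neither value was called (adjusted p = 0.143 and 0.774). Of the 14 genes of this group tested, 2 fell at each stage, against 4.13% of all genes called lower at P4 and 9.72% at P7, and none rose, against 4.84% and 7.26%. The other at P4 was Zfp473, a zinc finger protein of the U7 particle (-1.03, SE 0.29, adjusted p = 0.048), and at P7 Cstf2, a cleavage factor subunit (-1.06, SE 0.33, adjusted p = 0.0496). Slbp was read at 87.3 and 147 CPM in P4 WT and 106, 189 and 149 in P4 cKO, which overlapped (0.34, adjusted p = 0.426), and at 248 CPM in P7 WT against 148, 174 and 193 in P7 cKO (-0.53, adjusted p = 0.279). It rose from P4 to P7 in WT (1.08, SE 0.35, adjusted p = 0.0452). Casp8ap2, which recruits the cleavage machinery, gave -0.38 at P4 and -0.61 at P7 (adjusted p = 0.209 and 0.0921). Lsm10 and Lsm11 gave 0.30 and 0.60 at P4 (adjusted p = 0.377 and 0.0607) and 0.48 and 0.05 at P7 (0.249 and 0.901). The U7 RNA gene of the table had no read in any library.

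**Figure D4:**
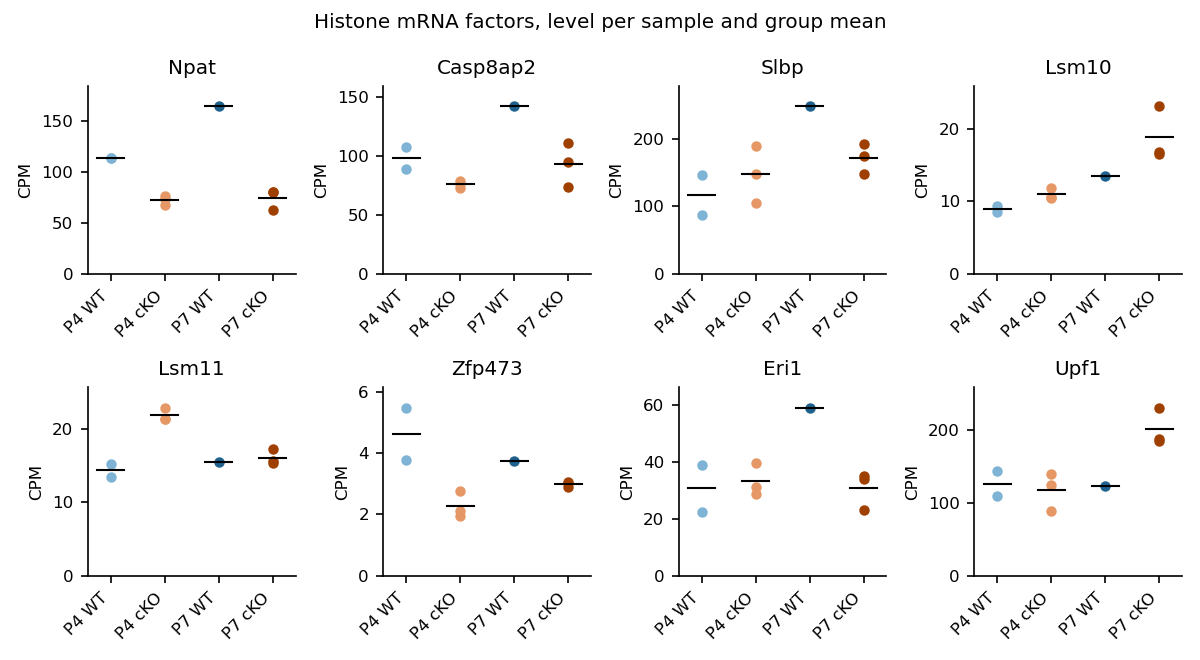
CPM per sample (points) and group mean (line) of 8 genes for histone mRNA synthesis, processing and decay; the P7 WT point is the sum of 2 libraries. Npat lies lower in cKO than in WT at both stages, while Slbp overlaps at P4.

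Of 16 genes of histone mRNA decay, 1 was called between genotypes at each stage, where 8.96% of all genes were at P4 and 17% at P7. This was Lsm4, another subunit of the LSm ring. It was higher by 0.95 at P4 (SE 0.26, adjusted p = 0.0441) and by 1.15 at P7 (SE 0.34, adjusted p = 0.0408). Eri1, the exonuclease that trims histone mRNA ends, was read at 59.2 CPM in P7 WT and at 23.1, 34.0 and 35.1 in cKO (-0.94, SE 0.32, adjusted p = 0.0598). From P4 to P7 in cKO, 2 of the 16 rose, against 14.5% of all genes, and 1 fell, against 14.7%. Upf1, a helicase of histone mRNA decay (0.78, SE 0.20, adjusted p = 0.0123), and Dis3 (0.41, SE 0.14, adjusted p = 0.0451) rose. Tut4 fell (-0.79, SE 0.26, adjusted p = 0.0381). In WT, 1 of the 16 rose, against 11.8% of all genes. This was Dcp2 (1.19, SE 0.24, adjusted p = 0.00704).

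Replication-independent histone genes, whose mRNAs carry poly(A) tails, were read at far higher levels, and 3 of 11 rose in cKO at each stage, against 4.84% of all genes at P4 and 7.26% at P7. None was lower, against 4.13% and 9.72%. H1f10, a linker histone gene, was read at 47.0 and 49.8 CPM in P4 WT and at 117, 129 and 106 in P4 cKO (1.28, SE 0.26, adjusted p = 0.0212). At P7 it was 19.0 CPM in WT and 51.9, 108 and 86.1 in cKO (2.11, SE 0.37, adjusted p = 0.0079). H1f0 and H2az2 were the others at P4 (0.88 and 0.71, adjusted p = 0.0216 and 0.0488), and H2ax and H2aj at P7 (0.94 and 1.37, adjusted p = 0.0154 and 0.0281). With offsets for length and GC, H2ax turned to -0.24 at P7, none of the 11 was called there, and H1f10 lost its call at P4 (0.79, adjusted p = 0.0943). H2ax makes both stem-loop and polyadenylated mRNA. The group's median log2 fold change was 0.65 at either stage, against 0.00 and 0.08 for all genes tested.

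From P4 to P7, 5 of the 11 fell in WT, where 9.97% of all genes did, and 5 in cKO, where 14.7% did. None rose, against 11.8% and 14.5%. H1f0, for example, changed by -1.12 in WT (SE 0.25, adjusted p = 0.0106) and -1.41 in cKO (SE 0.16, adjusted p = 0.000141). No replication-dependent member was called lower in either of these comparisons with all libraries. Without P7 cKO library 1, H2ac13 was lower in WT, and H2bc4 and H4c9 were lower in cKO.

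Of 28 S phase genes tested, 2 were called at P4, where 8.96% of all genes were, and 5 at P7, where 17% were, so both counts lie near those shares. At P4, Rpa1 (0.82) and Rpa2 (0.81), subunits of the single-strand DNA binding complex, rose (adjusted p = 0.0406 and 0.0315). At P7, Cdt1, Tk1, Rpa2 and Lig1 rose by 0.85 to 1.25 and Ccne2 fell (-1.21, adjusted p = 0.0187). The medians of the 28 were 0.29 at P4 and 0.35 at P7. Of 12 mitosis genes, Bub1 fell at P4 (-0.59, adjusted p = 0.0414), and at P7 Cdc20 rose (0.93, adjusted p = 0.0458) and Bub1 fell (-0.69, adjusted p = 0.033), a value that turned to 0.15 with offsets for length and GC. Of 15 histone chaperone genes none was called at P4, and Tonsl (1.08, adjusted p = 0.0263) and Daxx (0.71, adjusted p = 0.0433) rose at P7.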

How the data were processed

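The histone genes and the other gene lists were chosen with earlier results of these data known. Read counts per gene were deposited by the authors as one table of whole numbers, raw per the file header. The submitters' processing notes name Trim Galore 0.6.10, STAR 2.7.11a, featureCounts and Subread 2.0.6, on GRCm38. The sources used here give neither the strand setting nor the treatment of multi-mapped reads, so counts of near-identical, overlapping or antisense genes are uncertain.

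Of counts below 50, 67.8% to 80% were even, so that read pairs seem to be counted by both ends. Same-group libraries with a chi-square per degree of freedom of at most 2 were summed. Counts were filtered with filterByExpr (18419 genes kept), scaled with TMM and tested in 1 fit of 9 samples with edgeR 4.0.16 (R 4.3.3, robust quasi-likelihood F test, 5 residual degrees of freedom), which assumed the lone P7 WT sample to vary like the other groups. P-values are two-sided and adjusted by Benjamini-Hochberg over all genes tested, with a threshold of 0.05. The scripts were tested on simulated data. SE is the size of the log2 fold change over the root of F. CPM and RPKM use TMM-scaled totals. RPM uses plain totals.

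Genes named are the members called in any comparison, the 8 members highest by mean RPKM, the testis histones, up to 3 genes with the smallest p per comparison from each other list, and 9 set genes. H1f5, H1f4, H4c3, H3c4, H2ac11, H2bc13, Hist1h2bp, Fos and Defb19 were chosen after their values were seen. Alternatives were DESeq2 1.42.0, limma-voom (limma 3.58.1), other filters, scalings and groupings, and leaving out each library.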

Additional observations from a re-analysis of the deposited data

How the results depend on the processing

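Low counts set the limit: 52 of 65 members passed the filter and 25 had a mean of 10 reads or more. The count of called members at P4 was 1, and 2 with 10 separate libraries, where 1651 and 2895 genes of the whole table were called. At P7 it was 3 of 3129 genes called over the whole table. It was 8 of 4247 with DESeq2 and 14 of 6905 with 10 separate libraries. With the compared groups alone it was 0, and no gene of the whole table was called. With offsets for length and GC it was 0, and 1 gene of the whole table was called. From P4 to P7 in WT it was 0 of 4016, but 1 of 4958 with the compared groups alone and 1 of 7279 with 10 separate libraries. In cKO it was 10 of 5372, but 4 of 5397 with limma-voom and 5 of 5272 with the compared groups alone. The interaction gave 0, but 1 of 431 without a filter, 2 of 1665 with DESeq2 and 3 of 3105 with 10 separate libraries. Leaving out 1 library at a time gave 0 to 3 at P4, 1 to 6 at P7, 0 to 3 between stages in WT, 4 to 13 in cKO and 0 to 3 for the interaction. In cKO between stages it was 5, 6 and 4 without P4 cKO libraries 1, 2 and 3, and 6 without P7 cKO library 1. The whole table then gave 4437, 3520, 3571 and 5569 calls, against 5372 with all libraries. The cause was not tested.

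Whether replicate numbers pair the libraries could not be decided. Same-number correlations between WT and cKO were 0.145 and -0.0926 at P4 and 0.00292 and -0.00534 at P7. Values were centred in each group, so the WT libraries of a stage mirror each other by construction. The P7 WT libraries also differ by little more than sampling noise, which fixes values near 0. The replicate number was also used as a block over 10 separate libraries. Between genotypes, members were 1 of the 2732 genes called at P4 and 15 of the 7438 called at P7. Between stages they were 4 of 7812 in WT and 11 of 6714 in cKO, and for the interaction 4 of 4311. This setting counts the P7 WT libraries as separate samples, although they were summed for the results above.

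With offsets for length and GC, H2ax (-0.24) and Bub1 (0.15) changed sign at P7 and lost their calls. H4c9 between stages in cKO ran from -1.43 (without P7 cKO library 1, a call of the other sign) to 0.47 when 1 library was left out. A further 58 of 1811 alternative values of members changed sign with neither value past the threshold.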
